A study of Macaca mulatta with 51 samples.

Results

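CPXM1 (carboxypeptidase X, M14 family member 1) and 6 of its relatives in the metallocarboxypeptidase family, CPXM2, AEBP1, CPE, CPZ, CPM and CPD, were followed in adipose tissue (AT) and skeletal muscle (SM) of rhesus macaques before, at the end of and after treatment with FGF21, a hormone that lowers body weight in primates. These 7 genes are among 16033 in the count table. CPXM1 was chosen by its rise in every animal post-treatment in AT, so its AT values are given as a description without a test. The other 6 were chosen as its relatives by name.

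The animals were 10 obese, non-diabetic macaques, 5 males and 5 ovariectomized females aged 11 to 22 years, all on a long-standing high-fat diet. Each was its own control, and no animal went untreated. Pre-treatment biopsies preceded daily subcutaneous injections of native human FGF21 for 12 weeks in rising doses, with 1 animal held at a lower final dose. Post-treatment biopsies were taken at the end of those weeks and washout biopsies 16 weeks after dosing stopped. RNA was sequenced from punches of subcutaneous abdominal AT (10 pre-treatment, 9 post-treatment and 8 washout libraries) and of gastrocnemius SM (6, 8 and 7 libraries from 8 of the animals). Change with treatment cannot be told apart here from change with weight or with time alone.

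The family shares a carboxypeptidase fold that trims amino acids from the end of peptides and proteins. CPE removes basic residues from prohormones in the regulated secretory pathway, CPD does similar work in the trans-Golgi network, CPM is anchored at the outer cell membrane and is known from macrophages, and CPZ is a secreted enzyme with a frizzled-like domain that binds Wnt proteins. CPXM1, CPXM2 and AEBP1 carry a discoidin domain and lack residues needed for catalysis. AEBP1, also called ACLP, binds collagen and is a matrix protein of fibroblasts and adipose progenitor cells, and CPXM1 has been studied in adipogenesis.

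Total counts ranged from 14455195 to 23940980 per library. Levels are counts scaled to 1000000 per TMM-normalised library, written cpm in lower case because CPM in capitals is here a gene. The labelled tissues fitted their defining markers: ADIPOQ, the adipocyte hormone adiponectin, lay between 1166 and 4604 cpm in AT and between 0.87 and 128 in SM, whereas ACTA1, skeletal muscle actin, lay between 7100 and 42331 in SM and between 0.99 and 16.02 in AT. Levels are not divided by transcript length and are compared only within a gene. To be called changed, a gene needed a Benjamini-Hochberg adjusted p below 0.05 over the whole table of its tissue and a log2 fold change of more than 0.26 in size. The test was the quasi-likelihood test of edgeR with animal in the model. In 4 of the 8 post-treatment SM libraries, those of animals 20275, 21189, 21866 and 24849, the summed level of 11 skeletal muscle markers was low. It was 69054 to 146636 cpm, below the lowest pre-treatment library at 171885. Tests within SM that involve post-treatment libraries are given with and without these 4. Correlations in SM and comparisons between the tissues are given with them only.

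In AT, CPXM1 was higher post-treatment than pre-treatment in all 9 animals with both biopsies and lower again at washout in all 8 with both. The mean level was 44.1 ± 14.4 cpm pre-treatment (SD, n = 10), 125 ± 35.9 post-treatment (n = 9) and 47.3 ± 16.8 at washout (n = 8). Pre-treatment libraries ran from 23.2 over a median of 42.5 to 70.1, post-treatment libraries from 64.0 over 124 to 180, and washout libraries from 24.3 over 48.9 to 68.1. The post-treatment group stood apart from the others except for its lowest library, that of animal 24849, which overlapped with the highest of the other groups. Within animals the rise on the log2 scale ranged from 0.57 in animal 24849 and 0.82 in animal 23004 to 2.0 in animal 20261 and 2.26 in animal 22130, with a median of 1.74. The smallest rise was from 43.2 to 64.0 cpm and the largest from 37.5 to 180. The fitted log2 fold change was 1.53 (SE 0.16), or 2.89-fold, at an n of 9 animals with both biopsies.

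The fall from post-treatment to washout ranged from 0.87 to 2.0 on the log2 scale, with a fitted log2 fold change of -1.38 (SE 0.16). Because that contrast and the rise share the post-treatment libraries, the fall is no independent measurement. At washout CPXM1 lay above the animal's own pre-treatment level in 4 animals and below it in 4, and the fitted difference was 0.15 (SE 0.16). Animals 20275 and 22130 were still 0.83 and 0.86 above their pre-treatment values on the log2 scale, and animal 24849 was 0.40 below.

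**Figure D1:**
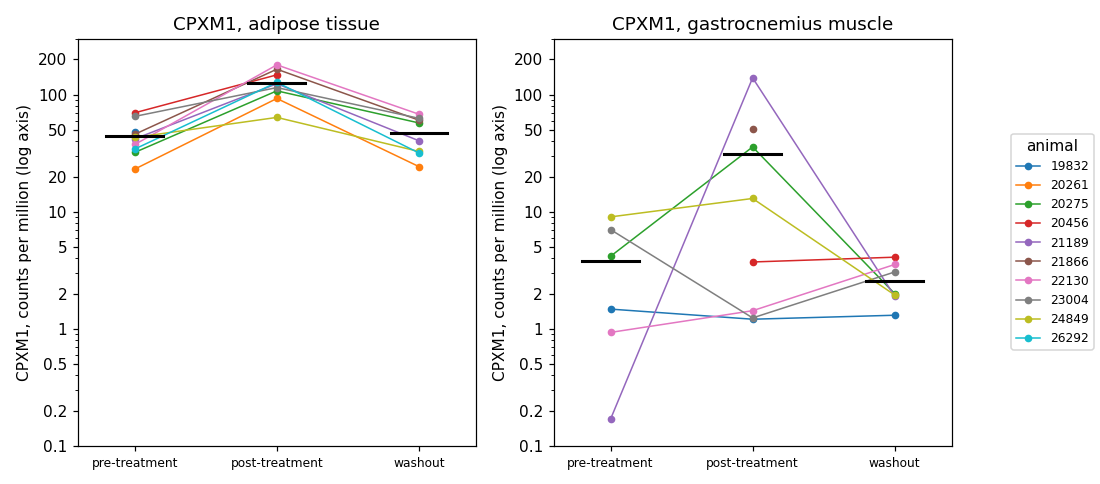
CPXM1 in cpm (log axis) at the 3 time points in adipose tissue (left) and gastrocnemius muscle (right). Each point is 1 library, lines join the libraries of an animal and black bars are group means. In adipose tissue all 9 lines rise post-treatment and all 8 fall at washout, whereas in muscle the lines diverge.

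None of the 6 relatives passed the test in AT post-treatment compared to pre-treatment, where 15.5% of the 13367 genes tested were called. Their median log2 fold change was 0.08, against 0.03 over all genes, and 1 of the 6 had an unadjusted p under 0.05 (34.3% of all genes). With DESeq2 and with voomWithQualityWeights of limma none of the 6 was called in this contrast either. Compared to post-treatment, 2 of the 6 changed at washout (35.4% of all genes), CPXM2 upward and CPM downward. None of the 6 was called at washout compared to pre-treatment (20.5% of all genes), with 2 at an unadjusted p under 0.05 (34.0% of all genes). None was called there by DESeq2 and 1, CPM, by voomWithQualityWeights. The 2 calls in 6 were near the share of all genes.

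AEBP1 and CPXM2 are the relatives that share the discoidin domain and the missing catalytic residues with CPXM1. AEBP1 was at 569 ± 183 cpm pre-treatment, 653 ± 117 post-treatment and 551 ± 234 at washout (SD, n = 10, 9 and 8). Levels ran from 323 to 942, from 501 to 885 and from 276 to 814, and the groups overlapped throughout. The log2 fold change post-treatment was 0.31 (SE 0.15, adjusted p = 0.152 by the quasi-likelihood test), higher in 6 of 9 animals, and at washout compared to post-treatment it was -0.33 (SE 0.16, adjusted p = 0.107). The animals split in their course: in animals 22130, 24849 and 26292 AEBP1 lay at 398, 373 and 323 cpm pre-treatment, at 597, 576 and 571 post-treatment and at 288, 323 and 276 at washout, while in animals 20275 and 21189 it moved little at the end of treatment, from 525 to 501 and from 674 to 656. In animal 20456 it rose post-treatment from 547 to 885, and in animal 20261 it fell from 942 to 674.

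CPXM2 did not follow CPXM1. It was at 66.4 ± 24.1 cpm pre-treatment, 55.7 ± 29.7 post-treatment and 90.1 ± 52.9 at washout (SD, n = 10, 9 and 8). The post-treatment change was -0.25 on the log2 scale (SE 0.24, adjusted p = 0.478), with 5 animals higher and 4 lower. At washout it was higher than post-treatment in 7 of 8 animals, by 0.67 on the log2 scale (SE 0.25, adjusted p = 0.0424). Animal 22130 had the widest swing, from 99.2 pre-treatment to 23.6 post-treatment and 132 at washout, whereas animal 24849 stayed between 35.3 and 45.3. The washout call lies close to the threshold, and without animal 22130 the log2 fold change was 0.48 (adjusted p = 0.0856), without animal 21189 0.56 (adjusted p = 0.125) and without animal 20275 0.55 (adjusted p = 0.119). It was also lost without animal 21866 (adjusted p = 0.0516) or 23004 (adjusted p = 0.0552), and without the post-treatment libraries of animals 20275 and 21189 the value was 0.49 (adjusted p = 0.207).

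**Figure D2:**
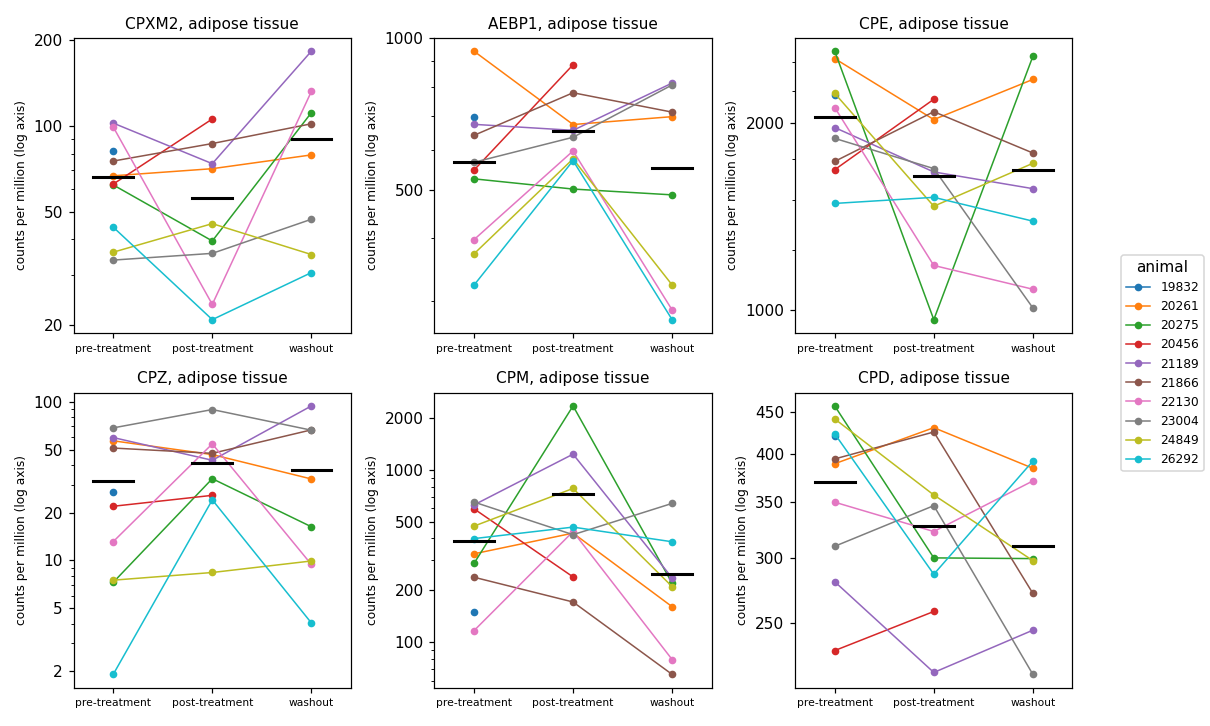
The 6 relatives of CPXM1 in adipose tissue, in cpm on log axes that differ between panels. Each point is 1 library, lines join the libraries of an animal and black bars are group means. CPM of animals 20275 and 21189 stands above all other libraries post-treatment, and the CPZ levels of the animals differ more than the group means.

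CPM, the membrane-anchored enzyme, had the widest spread between animals post-treatment. It was at 386 ± 195 cpm pre-treatment, 725 ± 686 post-treatment and 249 ± 186 at washout (SD, n = 10, 9 and 8). Post-treatment, 2 libraries lay far above the rest, animal 20275 at 2346 and animal 21189 at 1232, and the other 7 lay between 171 and 780. The log2 fold change post-treatment was 0.64 (SE 0.38, adjusted p = 0.242), with 6 of 9 animals higher. At washout CPM fell by 1.56 on the log2 scale from post-treatment (SE 0.40, adjusted p = 0.00524) and was lower in 7 of 8 animals, animal 23004 being the exception with 420 post-treatment and 638 at washout. Compared to pre-treatment, washout libraries were lower in all 8 animals, by a fitted 0.92 on the log2 scale (SE 0.39), and the adjusted p of 0.0992 did not pass.

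The CPM level moved with the markers of macrophages and, less closely, with those of T and NK cells. Over the 27 AT libraries the log2 level of CPM had a Pearson r of 0.93 with the log2 summed level of 16 macrophage markers. With the time point means removed it was 0.92. For T and NK cell markers r was 0.82 (0.76 with the means removed), for Schwann cell markers -0.56 (-0.61) and for endothelial markers -0.60 (-0.51). Other relatives ran against the macrophage marker sum: CPXM2 had an r of -0.58 (-0.51), CPE of -0.46 (-0.61) and CPD of -0.34 (-0.52). AEBP1 and CPZ had an r of 0.13 each (-0.09 and 0.01). The libraries come from 10 animals and are not independent, so that no p is given. The macrophage marker sum ran from 962 to 4111 cpm pre-treatment, from 1788 to 11257 post-treatment and from 739 to 4596 at washout, with animals 20275 and 21189 the highest post-treatment at 11257 and 8683. Of the 16 macrophage markers 5 rose post-treatment, among them LYZ (1.4 on the log2 scale), C1QB (0.96) and VSIG4 (0.94), and all 16 fell at washout compared to post-treatment, CD68 included. Of all 13367 genes tested, 933 rose post-treatment and 2379 fell at washout compared to post-treatment. CD68, the defining marker, was at 0 in no AT library and lay between 48.1 and 1295. Without the 2 libraries of animals 20275 and 21189, a choice made after seeing the data, the change of CPM from post-treatment to washout was -1.05 (SE 0.34, adjusted p = 0.0329) and the post-treatment change 0.18 (SE 0.33, adjusted p = 0.756). The part of macrophages in the CPM result was not tested. In bulk tissue, fewer cells of a type and less RNA per cell cannot be told apart.

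The r of CPXM1 with the macrophage marker sum was 0.52 over the AT libraries and 0.10 with the time point means removed. Removal of the means takes out the rise by which CPXM1 was chosen, so that the second value cannot speak to that rise. The post-treatment log2 fold change of CPXM1 without the libraries of animals 20275 and 21189 was 1.53 (SE 0.18). The adipocyte marker sum, 26508 ± 6897 cpm pre-treatment (SD, n = 10) and 20108 ± 6731 post-treatment (n = 9), had an r of -0.26 with CPXM1, and -0.05 with the time point means removed. With the summed level of 13 adipose progenitor markers CPXM1 had an r of 0.15 and -0.03. The sum of 21 genes of collagen fibril assembly was at 32007 cpm in the median pre-treatment library and 49696 post-treatment, and its r with CPXM1 was 0.55, and 0.31 with the time point means removed. Of the other lists, T and NK cell markers had an r of 0.57 with CPXM1 (0.22 with the means removed), mast cell markers of 0.31 (0.35), and smooth muscle and pericyte markers of -0.50 (-0.25). The part of macrophages and other cell types in the CPXM1 change was not tested.

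**Figure D3:**
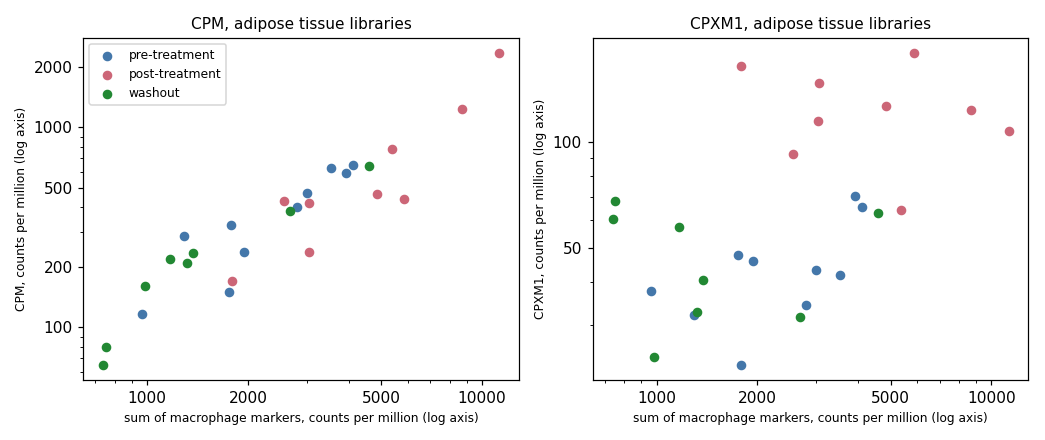
CPM (left) and CPXM1 (right) of each adipose tissue library against the summed level of 16 macrophage markers, all in cpm on log axes, coloured by time point. CPM rises with the marker sum across all 3 time points (r = 0.93 on the log2 scale). Post-treatment libraries, except that of animal 24849, lie above all others in CPXM1, which was chosen by its rise at that time point.

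CPZ, the Wnt-binding member, differed widely between animals at each time point. Its mean was 31.5 ± 25.1 cpm pre-treatment, 41.2 ± 23.0 post-treatment and 37.4 ± 33.8 at washout (SD, n = 10, 9 and 8), and the groups overlapped. The log2 fold change post-treatment was 0.88 (SE 0.37, adjusted p = 0.102), higher in 6 of 9 animals. The animals did not share a course: animal 26292 went from 1.92 to 24.1 cpm and animal 20275 from 7.28 to 32.8, whereas animals 20261, 21189 and 21866 began at 56.8, 59.5 and 51.1 and stood at 46.5, 42.8 and 47.3 post-treatment. Animal 23004, the highest pre-treatment at 68.5, went up to 89.3, and animal 24849 stayed low at 7.51 and 8.40. AEBP1 and CPZ moved together over the 27 AT libraries (r = 0.80), more closely than any other pair of the 7 genes there.

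CPE and CPD, the enzymes of the secretory pathway, had log2 fold changes of at most 0.30 in size. CPE was at 2043 ± 364 cpm pre-treatment, 1641 ± 410 post-treatment and 1682 ± 551 at washout (SD, n = 10, 9 and 8). Its post-treatment log2 fold change was -0.30 (SE 0.17, adjusted p = 0.218), lower in 6 of 9 animals. The steepest course was that of animal 20275, from 2603 to 966 and back to 2554 cpm, in the animal whose macrophage markers were highest post-treatment. CPD was at 370 ± 74.9, 327 ± 71.4 and 310 ± 66.3 cpm at the 3 time points. Its log2 fold change was -0.15 (SE 0.11, adjusted p = 0.368) post-treatment and -0.28 (SE 0.12, adjusted p = 0.0911) at washout compared to pre-treatment, where it was lower in 7 of 8 animals. At washout compared to post-treatment CPE differed by 0.01 (SE 0.18, adjusted p = 0.98) and CPD by -0.14 (SE 0.12, adjusted p = 0.375).

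**Figure D4:**
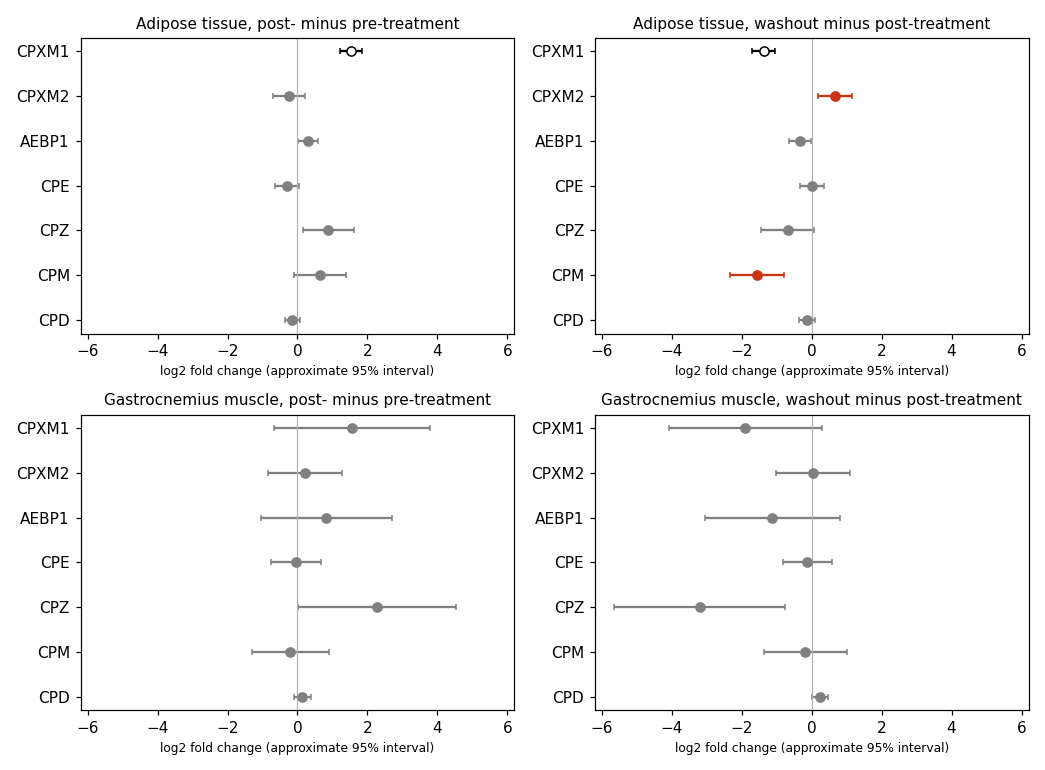
Log2 fold change of the 7 genes with approximate 95% intervals in adipose tissue (top) and gastrocnemius muscle (bottom), post-treatment against pre-treatment (left) and washout against post-treatment (right). Red points passed the test, grey points did not, and the open point is CPXM1 in adipose tissue, which was chosen on that change and is shown without a test. In muscle no member passed and the intervals are wider.

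Before treatment all 7 genes were higher in AT than in SM, on a scale normalised over both tissues. In this comparison 77.1% of 13662 genes were called in either direction, 5710 of them higher in AT and 4828 higher in SM. CPZ had the largest difference, 5.27 on the log2 scale (SE 0.90, adjusted p = 1.54e-06), from 24.5 ± 19.5 cpm in AT (SD, n = 10) and 0.41 ± 0.51 in SM (n = 6), where it had 0 to 19 counts per library. CPM followed at 4.32 (SE 0.67, adjusted p = 5.1e-07) and CPE at 3.95 (SE 0.34, adjusted p = 8.87e-13). AEBP1 differed by 2.89 (SE 0.67, adjusted p = 0.000218) and CPXM2 by 2.01 (SE 0.49, adjusted p = 0.000354). CPD had the smallest difference at 1.82 (SE 0.13, adjusted p = 2.98e-15). On that scale CPXM1, given without a test, was at 34.6 ± 11.5 cpm in AT and 5.15 ± 4.94 in SM, a fitted difference of 2.76 (SE 0.73).

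In SM none of the 7 genes passed the test post-treatment compared to pre-treatment, where 0.0% of the 12617 genes tested were called and 3.25% had an unadjusted p under 0.05. None was called at washout compared to post-treatment (0.19% of all genes) or compared to pre-treatment (0.0634%). The shares of all genes at washout varied widely between the alternative settings described at the end. The smallest adjusted p was 0.205, for CPZ at washout compared to post-treatment. DESeq2 and voomWithQualityWeights called none of the 7 in these contrasts, and 1 of the 7 had an unadjusted p under 0.05 in each washout contrast. Of all genes, 17.3% had such a p at washout compared to post-treatment and 13.4% compared to pre-treatment. The biological coefficient of variation was 0.356 over the SM libraries and 0.248 over the AT libraries.

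CPXM1 in SM was at 3.80 ± 3.60 cpm pre-treatment (SD, n = 6), 30.9 ± 47.6 post-treatment (n = 8) and 2.55 ± 1.02 at washout (n = 7). The 8 post-treatment libraries fell apart: animals 21189, 21866, 20275 and 24849 were at 139, 51.3, 35.8 and 13.0, and animals 20456, 22130, 23004 and 19832 at 3.72, 1.43, 1.24 and 1.21. The 4 high libraries are those with the low muscle marker sums. Pre-treatment levels lay between 0.17, a library of animal 21189 with 3 counts of CPXM1, and 9.04, and washout levels between 1.31 and 4.09. The log2 fold change was 1.56 post-treatment (SE 1.14, adjusted p = 1.0) and -1.89 at washout compared to post-treatment (SE 1.11, adjusted p = 0.402), with 4 of 6 animals higher and 3 of 7 lower. Without the 4 libraries both changed sign, to -1.07 (SE 0.70, adjusted p = 0.398) and 0.63 (SE 0.64, adjusted p = 0.641). The 4 were picked after the data were seen, at post-treatment alone, and were the highest there in CPXM1. A lower post-treatment level was thus built into the choice, and the change of sign is no independent result.

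Among the post-treatment libraries, the same 4 were high in other members. AEBP1 was at 1020, 328, 179 and 131 cpm in the post-treatment SM libraries of animals 21189, 21866, 20275 and 24849, and between 10.9 and 22.5 in the others. CPXM2 was at 24.9, 25.9, 27.8 and 19.3 in these libraries and between 3.02 and 5.49 in the others. CPM ran from 17.6 to 32.2 against 2.0 to 3.71. CPZ had 377, 197, 63 and 14 counts in these 4 libraries and 0 to 2 in the others, or 15.4, 8.20, 3.30 and 0.59 cpm. Libraries of other time points, with muscle marker sums above those of the 4, reached like levels of CPM and CPXM2: pre-treatment, CPM was at 33.8 in animal 24849 and 19.0 in animal 21189 and CPXM2 at 19.8 and 18.7, and at washout animal 22130 was at 24.7 and 27.3. CPE was at 115 and 188 cpm in animals 21866 and 24849 but at 66.9 and 76.8 in animals 21189 and 20275, near the other libraries at 46.2 to 57.2, and animal 24849 was at 162 pre-treatment already. CPD did not separate them, with 48.9, 77.4, 64.8 and 85.8 in these libraries and 53.9 to 65.3 in the others.

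Post-treatment against pre-treatment, AEBP1 had a log2 fold change of 0.82 (SE 0.96) and CPZ of 2.28 (SE 1.15), both at an adjusted p of 1.0. The others lay between -0.20 for CPM and 0.21 for CPXM2, CPD having the narrowest error at 0.14 (SE 0.13). At washout compared to post-treatment the changes were -1.13 for AEBP1 (SE 0.99), -3.21 for CPZ (SE 1.25), 0.03 for CPXM2, -0.12 for CPE, -0.18 for CPM and 0.23 for CPD (SE 0.12). Without the 4 libraries AEBP1 was at -1.35 and 0.96 and CPZ at -1.38 and 0.70 in these contrasts, and none of the 7 was called. The 4 were also the highest post-treatment in AEBP1 and CPZ, so that a lower level of both genes was built into the choice.

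Over the 21 SM libraries, from 8 animals, CPXM1 ran against the muscle markers and along with the collagen genes. Its log2 level had a Pearson r of -0.84 with the muscle marker sum and of 0.82 with the sum of 21 genes of collagen fibril assembly. AEBP1 had an r of -0.90 and 0.95, CPZ of -0.81 and 0.79, CPM of -0.74 and 0.88, and CPD of 0.084 and 0.12. CPM was closest to the macrophage marker sum there too (r = 0.96). The collagen sum was 35128, 23629, 13238 and 8501 cpm in the post-treatment libraries of animals 21189, 21866, 20275 and 24849 and 433 to 961 in the others. The adipocyte marker sum was not higher in these libraries as a group, at 301 to 2007 cpm against 1155 to 1789, with ADIPOQ at 0.87 to 123 against 9.27 to 31.4. Macrophage markers summed to 197 to 301 against 28.4 to 46.0. Of the 4 libraries 3 belong to the last series of library identifiers and 1 to the earliest, while the other post-treatment SM libraries all belong to the earliest. The part of tissue make-up and of the identifier series in the SM levels was not tested.

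**Figure D5:**
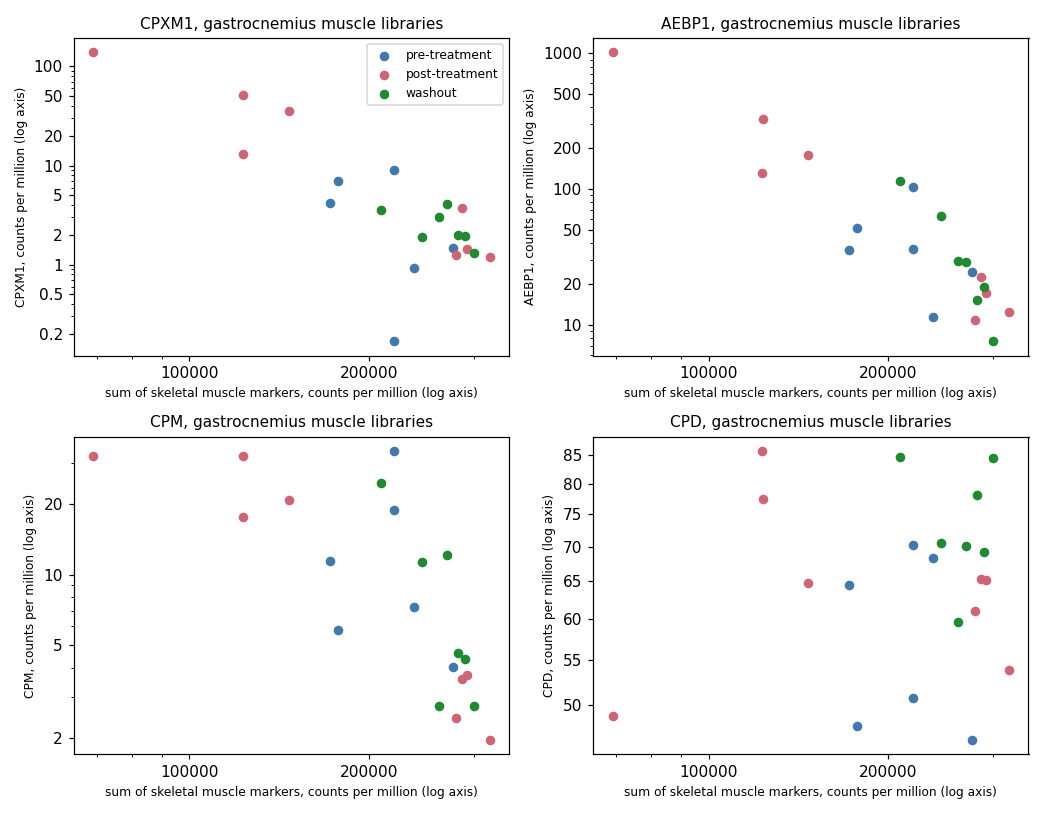
CPXM1, AEBP1, CPM and CPD of each gastrocnemius muscle library against the summed level of 11 skeletal muscle markers, all in cpm on log axes, coloured by time point. The 4 post-treatment libraries with sums of 69054 to 146636 lie at the left and are high in CPXM1 and AEBP1 (r = -0.84 and -0.90 on the log2 scale), whereas CPD shows no such course (r = 0.084).

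The change in AT was set against that in SM by an interaction term, for 12322 genes that passed the filter in AT and in SM. None of the 6 relatives differed between tissues post-treatment compared to pre-treatment (0.0487% of all genes) or at washout compared to post-treatment (22.7%). At washout compared to pre-treatment CPD differed (1 of 6, against 17.5% of all genes), with a log2 difference of -0.71 (SE 0.17, adjusted p = 0.00295). With library size alone as the scaling the call was lost (-0.49, adjusted p = 0.0954). CPD was lower in 7 of 8 animals in AT and higher in 5 of 6 in SM, where its levels were 58.0 ± 10.9 cpm pre-treatment (SD, n = 6) and 73.8 ± 9.08 at washout (n = 7) and the log2 fold change was 0.37 (SE 0.13, adjusted p = 0.268). For CPXM1 the interaction is given without a test. It was -0.03 (SE 0.97) post-treatment compared to pre-treatment, with an approximate 95% interval from -1.94 to 1.88 that leaves a wide range of differences. The post-treatment SM libraries low in muscle markers were kept in this fit.

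The genes with courses most like that of CPXM1 in AT were sought among the 10360 genes averaging 5 cpm or more over the 27 libraries. PEG10, an imprinted gene derived from a retrotransposon, came closest (r = 0.81), with 9.0, 16.2 and 7.11 cpm pre-treatment, post-treatment and at washout. CNRIP1 (r = 0.78), the ribosomal protein gene RPS25 (0.75), CMTM3 (0.75), the transcription elongation factor gene RTF1 (0.75), the iron exporter gene SLC40A1 (0.74), EIF3H (0.73) and MLANA (0.72) were also among the 10 genes with the highest r. CPXM1 was chosen by its rise post-treatment, so that genes with a rise at that time point rank high by this measure. The 27 libraries come from 10 animals and are not independent. With the time point means removed, RARRES2, which encodes the adipokine chemerin, was first (r = 0.69), followed by PEG10 and RPS25 (both 0.60), CAPN5 (0.58) and PNMA1 (0.57). None of the 6 relatives was among these genes: r lay between -0.34 for CPE and 0.36 for CPZ, and with the means removed between -0.43 for CPD and 0.31 for CPZ.

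In SM the order was another. POSTN, which encodes the matrix protein periostin, had the highest r with CPXM1 (0.93, over 8816 genes and 21 libraries), followed by BEX3 (0.90), YWHAQ, TCEAL8 and FSCN1 (each 0.88). POSTN was at 3446, 379, 473 and 28.3 cpm in the post-treatment libraries of animals 21189, 21866, 20275 and 24849 and at most 1.59 in the other post-treatment libraries. AEBP1 had an r of 0.86 with CPXM1, with 12 genes higher, and CPZ of 0.84, with 26 higher. CPXM2 (0.59) and CPM (0.57) were further down, and CPE (0.37) and CPD (0.060) lowest. These values rest on libraries of the same animals and on the same 4 libraries described above.

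Genes with related roles were described from lists in AT, by counts of called genes. Of all 13367 genes tested, 933 rose and 1135 fell post-treatment. At washout compared to post-treatment, 2352 rose and 2379 fell. Of the other metallocarboxypeptidases, 8 of 16 listed genes were tested. CPB1, a pancreatic-type carboxypeptidase, rose post-treatment at low levels, from 0.53 ± 0.82 to 1.14 ± 0.79 cpm (SD, n = 10 and 9; log2 fold change 1.41, SE 0.40, adjusted p = 0.0222). It turned at washout, by -1.20 on the log2 scale compared to post-treatment. Of the 4 serine carboxypeptidases of lysosomes and secretory vesicles, PRCP rose post-treatment by 0.64 (SE 0.22, adjusted p = 0.048), and all 4 fell at washout compared to post-treatment, CPVL by 1.27, CTSA by 0.77, PRCP by 0.73 and SCPEP1 by 0.44. The median of this list was 0.51 post-treatment and -0.75 at washout compared to post-treatment, with all genes at 0.03 and 0.00.

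Among 13 tested genes of prohormone processing, the pathway of CPE, 1 fell post-treatment and none rose: SCG5, a chaperone of a prohormone convertase, at 1.18 ± 1.05 and 0.53 ± 0.32 cpm (-1.0, SE 0.32, adjusted p = 0.0404). Of 10 tested genes with a discoidin domain other than the members, the collagen receptor DDR1 fell from 37.7 ± 11.3 to 21.7 ± 4.22 cpm (-0.79, SE 0.15, adjusted p = 0.0035), and none rose. Of these 10, 2 rose and 3 fell at washout compared to post-treatment. The 15 tested genes with a frizzled domain, the kind that CPZ carries, held 3 that rose and 1 that fell. FRZB, a secreted Wnt antagonist, fell from 898 ± 461 to 344 ± 310 cpm (-1.82, SE 0.48, adjusted p = 0.0203) and was back at 883 ± 590 at washout. The Wnt receptor genes ROR2 (0.83, SE 0.17, adjusted p = 0.00503) and FZD7 (0.72, SE 0.19, adjusted p = 0.0213) rose.

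Of 21 genes of collagen fibril assembly, the setting in which AEBP1 is known, 2 rose and 2 fell post-treatment. COL1A1 went from 4011 ± 1833 to 7660 ± 3099 cpm (1.02, SE 0.30, adjusted p = 0.0285) and COL1A2 from 5379 ± 1933 to 9434 ± 3623 (0.81, SE 0.26, adjusted p = 0.0387). The collagen cross-linking enzyme gene LOXL2 fell from 92.1 ± 22.1 to 51.4 ± 22.03 (-0.96, SE 0.15, adjusted p = 0.00127). Of the 21, 9 fell and 2 rose at washout compared to post-treatment, with a list median of -0.47, and AEBP1 itself did not pass there. Of 12 tested adipose progenitor markers 1 rose post-treatment, DPP4 (0.81, SE 0.20, adjusted p = 0.015), with PDGFRA among the 11 that did not pass. Of 7 adipocyte markers 3 fell: the leptin gene LEP (-1.93), the triglyceride synthesis gene DGAT2 (-1.13) and the lipid droplet gene PLIN1 (-0.62), the last at 2348 ± 491 and 1540 ± 426 cpm. Of the tested markers of other cells, 1 of 8 for T and NK cells (CD8A), 1 of 7 for Schwann cells (NCAM1) and 1 of 4 for skin (DSG1) rose, 1 of 4 erythroid markers fell (SLC4A1), and none passed among those of mast cells, endothelium, smooth muscle and skeletal muscle. DSG1 and SLC4A1 were low, with SDs above their means: DSG1 at 0.04 ± 0.08 and 2.11 ± 5.54 cpm and SLC4A1 at 3.39 ± 5.33 and 0.83 ± 1.18 cpm pre- and post-treatment. In SM none of these lists held a called gene in any contrast.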

How the data were processed

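RNA was read as 50-nucleotide pairs from stranded polyA libraries. STAR and the MacaM macaque assembly were used for alignment, libraries with poor mapping were left out, and the authors deposited read counts per gene without normalization. Human gene identifiers name the genes, and the counting tool and the gene models behind the deposited counts are not given in the sources used here. Of 51 labelled samples, 48 had counts; 3 SM samples were not analysed here. Of 16103 table entries, 70 identical repeats were dropped. Samples were grouped by the tissue and time point of their labels, and replicates are animals.

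Genes with 0.5 cpm (counts per 1000000) or more in 10% of a tissue's libraries were tested with edgeR 4.0.16 (R 4.3.3), TMM-normalised, with time point and animal in a robust, two-sided quasi-likelihood fit per tissue. AT and SM were compared in 1 fit over both. Standard errors were derived from the F statistic and intervals are approximate. Log2 levels used a prior count of 2. limma 3.58.1 and DESeq2 1.42.0 served as alternatives, and the scripts were tested on simulated data. Members and lists were chosen with earlier results of these data known. Beside the members, the text names the 10 genes most correlated with CPXM1 in AT and 5 in SM, 5 in AT with time point means removed, up to 3 called genes per list post-treatment in AT, and defining markers. CPVL, CTSA and SCPEP1, and POSTN per library, were added after their values were seen. A few genes that the rule names are not reported here. Same-animal libraries of different time points correlated in their deviations from the group means (median r 0.35 over 25 AT pairs and 0.28 over 19 SM pairs, against -0.04 and -0.05 between animals), and the labels give the animal. Library identifiers fall into an earliest, a middle and a last series, whose meaning the labels do not state.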

Additional observations from a re-analysis of the deposited data

Results flagged for a closer look

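The washout change of CPD compared to pre-treatment differed between tissues by an interaction test, with a log2 difference of -0.71 between AT and SM (SE 0.17, adjusted p = 0.00295 by the quasi-likelihood test of edgeR). CPD was lower at washout in 7 of 8 animals in AT and higher in 5 of 6 in SM. With library size alone as the scaling the difference was -0.49 (adjusted p = 0.0954) and did not pass. No washout library of SM belongs to the earliest identifier series, which holds 3 of the 6 pre-treatment SM libraries; the part of that series in the difference was not tested. Among 42 groups of libraries, 1 per member, tissue and time point, none held a library that stood apart from the rest by Dixon's criterion. That criterion looks for 1 library far from all others and cannot see 2 or more that stand apart together, such as CPM in 2 post-treatment AT libraries.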

How the results depend on the processing

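Of the 6 relatives, none was called in AT post-treatment compared to pre-treatment under any alternative. In AT at washout compared to post-treatment, 2 were called, and 1 (CPM) without a low filter, with no replicate block (CPXM2 0.69, adjusted p = 0.125), with the identifier series as a covariate, in the last series only and with only the 2 time points, and 1 to 2 with an animal left out. Without the libraries highest in macrophage markers the 2 were CPM and AEBP1 (-0.46, adjusted p = 0.0489). CPM passed under each of these, with log2 fold changes from -2.01 to -1.05. At washout compared to pre-treatment, none was called in AT, but 1 (CPM) with voomWithQualityWeights, 2 (CPM and CPD) with the series as a covariate, 1 (CPM) without the pre-treatment library of animal 20275 and 2 (CPM and CPD) with only the 2 time points. In SM at washout compared to post-treatment none was called, but 1 (CPZ) with no replicate block and 4 in the last series only, where 2 animals had both biopsies and each post-treatment library was low in muscle markers. In the AT and SM comparison at washout and post-treatment, 2 were called with no replicate block and 0 to 1 with an animal left out. At washout and pre-treatment 0 were called with library size only. Leaving out the replicate block changed no other count of members called. With 10 counts in every library CPZ could not be fitted in SM. The cause of these changes was not tested.

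The changes of sign concerned values that passed the test in neither setting, or CPXM1 between tissues, which has no test. For CPE in AT at washout and post-treatment, these were -0.090 with voomWithQualityWeights, -0.13 with the series as a covariate, -0.15 without the libraries highest in macrophage markers, and -0.16 to 0.11 with an animal left out. For AEBP1 in AT at washout and pre-treatment they were 0.091 with library size only, 0.092 with the series, 0.095 in the last series, 0.0096 without the pre-treatment library of animal 20275, and -0.11 to 0.036 with an animal left out.

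In SM post-treatment, without the libraries lowest in muscle markers, CPXM1 was at -1.07, CPXM2 at -0.72, AEBP1 at -1.35 and CPZ at -1.38, and at washout compared to post-treatment CPXM1 was at 0.63, AEBP1 at 0.96, CPE at 0.26, CPZ at 0.70 and CPM at 1.15. Those libraries were left out at post-treatment alone and were the highest there in each of these genes, so that the direction of these shifts was built into the choice. Post-treatment, CPXM2 was at -0.11 in the last series, and AEBP1 at -0.021 with voomWithQualityWeights. CPE was at 0.052 with library size only, 0.042 with no replicate block, 0.057 with the series, 0.43 in the last series and 0.0044 with 2 time points. CPM was at 0.087 with no replicate block, 0.092 with the series and 1.20 in the last series. At washout compared to post-treatment, CPXM2 was at -0.26 with voomWithQualityWeights, -0.11 with library size only, -0.34 with no replicate block, -0.19 with the series, -0.84 in the last series and -0.11 with 2 time points, and CPM was at 0.0078 with voomWithQualityWeights. With an animal left out, post-treatment values ran from -0.0096 to 0.45 for CPXM2 and -0.18 to 0.11 for CPE, and washout values from -0.53 to 0.46 for CPXM2, -0.49 to 0.16 for CPE and -0.83 to 0.23 for CPM. The AT and SM difference of CPXM1 ran from -0.67 to 1.02 post-treatment, -0.56 to 1.12 at washout compared to post-treatment and -0.023 to 0.84 compared to pre-treatment, with animal 21189 or 24849 setting 1 end of each.

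The rise of CPXM1 in AT stayed between 1.44 and 1.65 over all alternatives, and within the last series, with 6 animals, it was 1.59. The number of all genes called in AT post-treatment, 2068, fell to 805 without animal 22130, 998 without animal 20275, 1316 without animal 21189, 1037 without the libraries highest in macrophage markers, 1162 without the pre-treatment library of animal 20275 and 810 in the last series, and at washout, in the last series, 4731 fell to 2224 compared to post-treatment and 2735 to 1125 compared to pre-treatment. In SM the 24 genes called at washout compared to post-treatment became 0 to 3026 under alternatives, with 0 without animal 19832 or 20275 and without the libraries lowest in muscle markers, 1 without animal 24849, 3 without animal 20456 or 21189 and 7 without animal 23004, and the 8 compared to pre-treatment became 0 to 1355. Between tissues, 6 became 0 to 10 post-treatment, with 0 without animal 20275 or 21189, and 2157 became 1429 without animal 20275 at washout compared to pre-treatment. Depth limits what can be said of CPZ in SM, which had 0 to 19 counts in the pre-treatment libraries and 0 to 8 at washout.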
